A study of Zea mays with 2 samples.

Results

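Nkd1, Nkd2 and AL-9 are genes of the maize aleurone, the outermost cell layer of the endosperm. They were picked by gene identifier (GRMZM2G129261, GRMZM5G884137 and GRMZM2G091054) and are 3 of the 41406 genes in the deposited tables. The data are 1 endosperm RNA library of kernels with the genotype entry dek40 and 1 of wild-type kernels, both at 12 days after pollination in Zea mays. The series title and design text name the mutant dek41, and the sample is called the dek40 library here, after its own label. The sources used here do not give the allele, the inbred background, the number of ears or kernels pooled, or how the endosperm was freed from embryo and pericarp. The name dek stands for defective kernel. Because each genotype has 1 library, no spread between replicates could be measured and no test was run. "Higher" and "lower" therefore compare these 2 libraries, without a replicate check.

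The aleurone surrounds the starchy endosperm, stores oil and protein, makes the kernel pigment in coloured lines and secretes hydrolases at germination. Its fate depends on position and is set by signalling that includes the receptor kinase CR4 and the membrane calpain DEK1. Nkd1 and Nkd2 (naked endosperm) are duplicated genes for zinc-finger transcription factors of the INDETERMINATE domain family. In maize plants that lack both, the peripheral endosperm forms several layers of poorly differentiated cells. The products of the pair also act on genes of storage and maturation, opaque-2 and viviparous1 among them. AL-9 is an aleurone gene whose product is of the lipid-transfer protein class, small proteins that bind lipids and are often secreted to the cell wall, and its transcript is used as an aleurone marker.

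The 3 genes did not change alike. After the scaling described below, Nkd1 was about 2-fold lower in the dek40 library and Nkd2 was within 2-fold. AL-9 was more than 2-fold higher, at a level among the 11 highest of the dek40 library. With the values as deposited, Nkd1 was lower but within 2-fold. Levels below are the deposited values, in RPKM for dek40 (reads per kilobase of a gene, relative to all mapped reads) and FPKM for the wild type (the same for fragments). Log2 ratios are dek40 over wild type with a pseudocount of 1, after the dek40 values were multiplied by 0.747, which puts the median of the 25115 genes at 1 or more in both libraries at 0. The deposited values of the median gene were 1.34-fold higher in dek40, a shift of 0.42 on the log2 scale. The rule for a call was a difference of 2-fold or more in a gene at a level of 1 or above in either library. Under it, 6.33% of the 28178 genes reaching the level were higher and 4.99% were lower, against 14.7% and 2.65% of 29142 genes with the values as deposited. The 3 members all reached it.

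Nkd1 stood at 78.4 RPKM in the dek40 library and at 121 FPKM in the wild type. The log2 ratio was -1.04, a 2.05-fold lower level. The 95% interval from the reads ran from -1.13 to -0.97 and so included 2-fold itself. It covers counting error only and rests on at least 1966 reads in dek40 and 3351 in the wild type. As deposited, the log2 ratio was -0.62, which is lower but within 2-fold. Among all genes reaching the minimum level, 4.61% had a ratio as low as that of Nkd1 or lower. The word zein in a description marks storage proteins, but also Floury1 (GRMZM2G094532), a "Zein protein-body ER membrane protein", and zeins described otherwise would be missed. The place of Nkd1 in the order of levels was 2414 in dek40 and 1235 in the wild type. Without the 22 genes described with that word, it was 2393 and 1214. That order does not depend on the scaling.

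Nkd2 stood at 41.3 RPKM in the dek40 library and at 36.6 FPKM in the wild type. The log2 ratio was -0.24, its counting interval -0.37 to -0.12, on at least 1054 and 1031 reads, but it was 0.17 as deposited, so its direction depends on the scaling. No call of a change was made for Nkd2 under either scaling. Its place among all genes was 4429 in dek40 and 3840 in the wild type.

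AL-9 stood at 7778 RPKM in the dek40 library and at 2607 FPKM in the wild type. The log2 ratio was 1.16, a 2.23-fold higher level, with a counting interval of 1.13 to 1.19 on at least 36829 and 13604 reads. As deposited it was 1.58. It was the 11th most abundant gene of the dek40 library and the 46th of the wild type, and without the genes described with the word zein it was the 11th and the 29th. AL-9 alone made up 0.562% of the summed RPKM in dek40 and 0.181% of the summed FPKM in the wild type. Genes described with the word zein made up 2.49% of the dek40 sum and 16.1% of the wild-type sum, so the shares of AL-9 rest on sums of unlike make-up. A ratio as high as that of AL-9 or higher was found in 4.28% of the genes reaching the minimum level. In endosperm RNA, a different number of aleurone cells and a different amount of RNA per cell cannot be told apart.

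**Figure D1:**
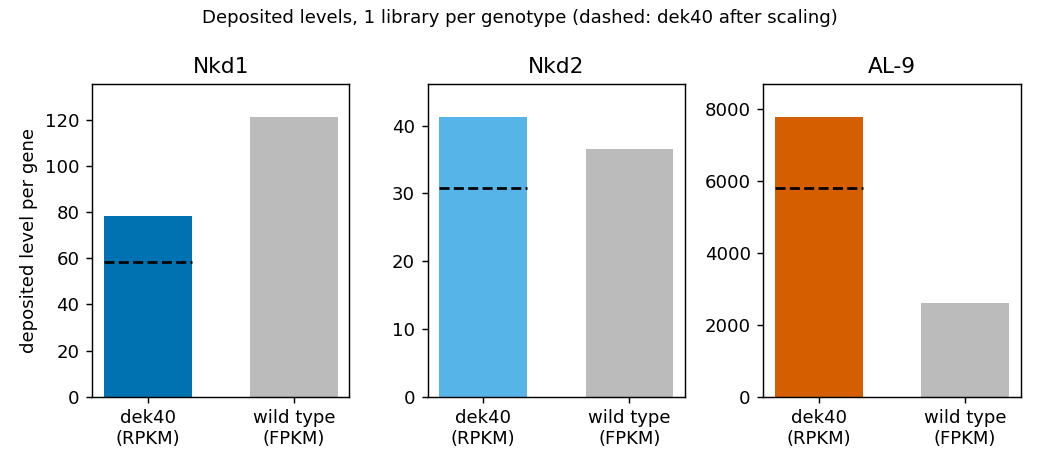
Deposited level of Nkd1, Nkd2 and AL-9 (vertical axes from 0, one scale per gene) in the dek40 library (coloured bars, RPKM) and in the wild type (grey bars, FPKM), with 1 library each and so no error bars. The dashed line marks the dek40 level after scaling to the median gene (58.6 for Nkd1, 30.8 for Nkd2 and 5813 for AL-9), which lies below the wild-type bar for both Nkd genes and above it for AL-9.

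**Figure D2:**
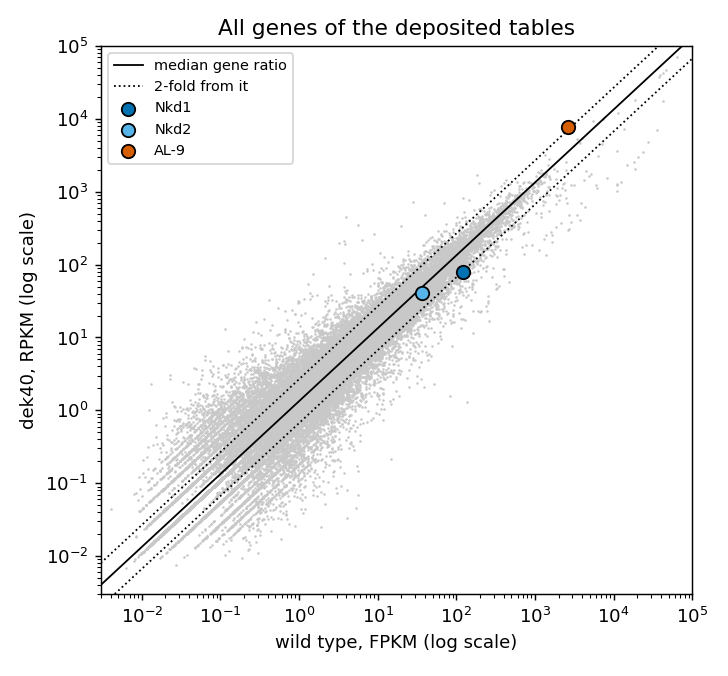
Deposited level of every gene in the dek40 library (vertical, RPKM) against the wild type (horizontal, FPKM), both axes logarithmic, with each grey point 1 gene. The solid line is the median gene ratio of 1.34 and the dotted lines lie 2-fold from it. Nkd1 sits at the lower dotted line, Nkd2 just under the solid line and AL-9 above the upper dotted line.

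Ratios between the members within a library are free of the scaling between libraries and of the difference between reads and fragments. Nkd1 was 1.90 times as abundant per length as Nkd2 in the dek40 library and 3.31 times in the wild type. The difference of these log2 ratios was -0.80, with a counting interval of -0.95 to -0.65, so the balance of the duplicates differed by more than counting error. Nkd1 made up 65.5% of the summed level of the pair in dek40 and 76.8% in the wild type. The summed level was 120 RPKM in dek40 and 158 FPKM in the wild type (log2 ratio -0.81 after scaling and -0.40 as deposited). Nkd1 and Nkd2 are related copies. The sources used here do not say how reads matching more than 1 gene were assigned, so part of the split between them is uncertain.

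AL-9 was 99.2 times as abundant per length as Nkd1 in the dek40 library and 21.5 times in the wild type. The difference was 2.21 on the log2 scale (counting interval 2.12 to 2.29), or 4.61-fold. Against Nkd2, AL-9 was 189 times as abundant in dek40 and 71.2 times in the wild type, a log2 difference of 1.40 (1.28 to 1.53). The order of levels was AL-9, Nkd1, Nkd2 in both libraries.

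AL-9 was the 27th gene by the mean of both libraries after scaling. Of the 50 most abundant genes by that mean, 1 was higher in the dek40 library, AL-9 itself, 30 were lower, and 15 of the 50 are described with the word zein. For comparison, 6.33% of all genes reaching the minimum level were higher and 4.99% were lower. Of the 100 most abundant, AL-9 was still the 1 higher gene, against 49 lower ones. As deposited, 2 of those 100 were higher, AL-9 and the cytosolic glyceraldehyde-3-phosphate dehydrogenase gene gpc2 (GRMZM2G180625), and 41 were lower. The gene gpc2 was singled out after its values were seen. Of the 200 most abundant, 7 were higher and 63 were lower. The mean includes the wild-type level, so genes that are lower in dek40 enter through their high wild-type values, and the number of lower genes is partly fixed by that choice. The number of higher genes also depends on the order, and with it the standing of AL-9 as the 1 higher gene. Ordered by the dek40 level alone, 2 of the first 50 genes were higher (AL-9 and GRMZM2G135960) and 16 were lower, and of the first 100 genes 7 were higher and 28 were lower. Ordered by the wild-type level alone, 1 of the first 100 was higher, AL-9, and 61 were lower. These orders and cut-offs were chosen after the values were seen, and the counts are a description.

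**Figure D3:**
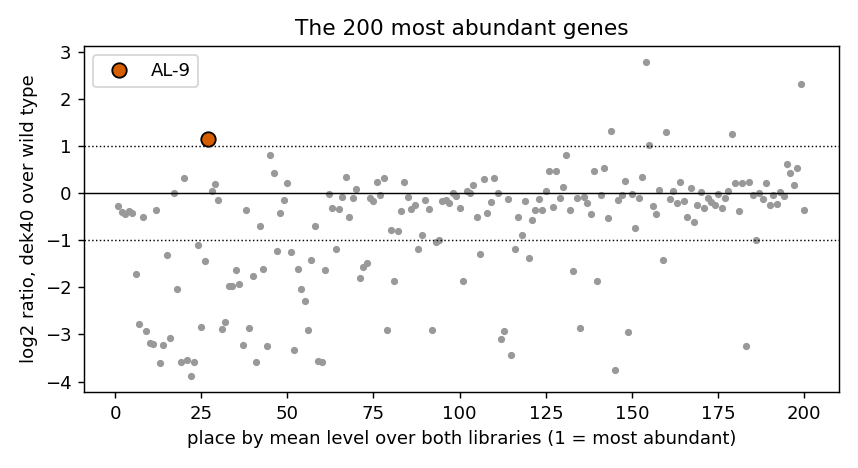
Log2 ratio of dek40 over wild type, relative to the median gene (vertical), for the 200 genes with the highest mean level over both libraries, in order of that mean (horizontal). Dotted lines mark 2-fold. AL-9, the 27th gene, is at 1.16 and is the 1 point above the upper dotted line among the first 100 in this order.

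The other genes of the aleurone regulator list were within 2-fold after scaling. Of the 6 measured genes of that list, all reached the minimum level, 1 was lower (Nkd1) and 0 were higher. Over all genes reaching it, 4.99% were lower and 6.33% were higher. The list median was 0.04, against 0.02 over all genes reaching the level. As deposited, 1 of the 6 was higher and 0 were lower. The receptor kinase gene cr4 (GRMZM2G051637), which promotes aleurone fate, was that gene. It stood at 6.87 RPKM in dek40 and 2.90 FPKM in the wild type, with a log2 ratio of 0.65 after scaling and 1.01 as deposited. The calpain gene dek1 (GRMZM2G321753), needed to form and keep the aleurone, was at 10.3 RPKM in dek40 and 7.06 FPKM in the wild type (log2 ratio 0.11).

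The vacuolar sorting gene sal1 (GRMZM2G117935), which restricts the aleurone to a single layer, was at 136 RPKM in the dek40 library and 103 FPKM in the wild type. Its log2 ratio was -0.02 after scaling and 0.40 as deposited, so its direction depends on the scaling. The maturation factor gene vp1 (GRMZM2G133398), which acts in abscisic acid responses and pigment formation, was at 8.34 RPKM in dek40 and 4.62 FPKM in the wild type. Its log2 ratio was 0.37, with a counting interval of 0.01 to 0.87. The 4 regulators other than the Nkd pair thus ranged from -0.02 to 0.65.

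Among aleurone products and pigment genes, AL-9 was the 1 higher gene of the 6 that reached the minimum level, and 0 were lower. Of all genes reaching it, 6.33% were higher and 4.99% were lower. The list median was 0.30. The antioxidant gene PER1 (GRMZM2G129761, a 1-Cys peroxiredoxin that in barley is made in aleurone and embryo) stood at 59.8 RPKM in the dek40 library and 56.6 FPKM in the wild type. Its log2 ratio was -0.33 after scaling and 0.08 as deposited, so its direction too depends on the scaling. The anthocyanidin synthase gene a2 (GRMZM6G474234) was at 15.8 RPKM in dek40 and 8.21 FPKM in the wild type (log2 ratio 0.48). PER1 and a2 were at moderate levels, and neither was past 2-fold. Whether their transcripts came from the aleurone was not tested.

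The chalcone isomerase gene chi1 (GRMZM2G155329) had a log2 ratio of 0.11, with 12.5 RPKM in the dek40 library and 8.56 FPKM in the wild type. The glutathione transferase gene bz2 (GRMZM2G016241), which acts in moving anthocyanin to the vacuole, was at 9.78 RPKM in dek40 and 6.90 FPKM in the wild type (log2 ratio 0.07). The glucosyltransferase gene bz1 (GRMZM2G165390) was at 1.89 RPKM in dek40 and 0.677 FPKM in the wild type (log2 ratio 0.52, on 38 and 15 reads or more). Its counting interval, taken without the pseudocount, was 0.16 to 2.03 and included 2-fold. The other 3 measured genes were below the minimum level in both libraries. They were the MYB gene c1 (GRMZM2G005066), with 1.03 RPKM before scaling in dek40 and 0.156 FPKM in the wild type, the bHLH gene r1 (GRMZM5G822829) and the chalcone synthase gene c2 (GRMZM2G422750). The gene r1 was at 0.0384 RPKM in dek40 and 0.105 FPKM in the wild type, and c2 was at 0.0276 RPKM in dek40 and 0.752 FPKM in the wild type. The reads of c2 were at least 1 in dek40 and 30 in the wild type. Its counting interval without the pseudocount, -10.54 to -2.60, lay beyond 2-fold lower, but no call was made below the minimum level. The intervals of c1 (-0.74 to 7.83) and r1 (-7.58 to 1.77) included no difference. No other gene of the list that reached the minimum level was past 2-fold.

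Without AL-9, the products and pigment list summed to 101 RPKM in the dek40 library and 81.9 FPKM in the wild type, and to 75.4 in dek40 after scaling, so the direction of the sum depends on the scaling. With AL-9 the sums were 7879 RPKM in dek40 (5888 after scaling) and 2689 FPKM in the wild type, so the summed level of this list is in effect the level of AL-9. The aleurone marker list held Nkd1, Nkd2, AL-9, vp1 and c1. Of the 4 that reached the minimum level, 1 was higher and 1 was lower, against 6.33% and 4.99% of all genes reaching it. Without AL-9, the list summed to 129 RPKM in dek40 (96.4 after scaling) and 163 FPKM in the wild type.

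In the INDETERMINATE domain family, 3 genes were matched by name and 1 of them, Nkd1, was lower. The share lower over all genes reaching the minimum level was 4.99%. The third gene, described as INDETERMINATE-related protein 7 (GRMZM2G042666), was at 4.88 RPKM in the dek40 library and 4.60 FPKM in the wild type. Its log2 ratio was -0.27 after scaling, with a counting interval of -0.73 to 0.06, and 0.07 as deposited. The list median was -0.27. Other genes of the family may lack a matching name in the tables.

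AL-9 is on a list of genes with the words lipid transfer or lipid-transfer in the description, which were spread in both directions. For AL-9, GRMZM2G063375 and GRMZM2G155555 the words are part of a superfamily name that also includes inhibitors and seed storage albumins. Of the 17 such genes that reached the minimum level (19 measured), 5 were higher and 6 were lower, where 6.33% and 4.99% of all genes were. Their median was -0.54 and their range -3.39 to 1.73. AL-9 was the most abundant, and the other 18 summed to 1041 RPKM in the dek40 library and 909 FPKM in the wild type, but to 778 in dek40 after scaling, so the direction of that sum depends on the scaling. The gene with the highest ratio was plt1 (GRMZM2G101958), a phospholipid transfer protein gene, at 451 RPKM in dek40 and 101 FPKM in the wild type. The other higher ones were GRMZM2G137329 at a log2 ratio of 1.55 (on 135 and 35 reads or more), GRMZM2G387360 at 1.31 and GRMZM2G083725 at 1.09, whose counting interval of 0.99 to 1.23 included 2-fold. With the values as deposited, 6 were higher and 5 were lower, and with a pseudocount of 5 in place of 1, 5 were higher and 3 were lower.

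The 6 lower genes of this list were led by GRMZM2G406552, described as a non-specific lipid-transfer protein, at 58.2 RPKM in the dek40 library and 466 FPKM in the wild type (log2 ratio -3.39). The gene GRMZM2G063375 shares with AL-9 the entry "5a2 protein" in its description, and it lay on the other side. It stood at 25.6 RPKM in dek40 and 68.8 FPKM in the wild type (log2 ratio -1.79, counting interval -2.14 to -1.56). The remaining ones were GRMZM2G155555 at -1.91, GRMZM2G393150 at -1.61, GRMZM2G439268 at -1.39 and GRMZM2G071575 at -1.10. These 4 were at 5.45 RPKM or less in dek40 and at 17.6 FPKM or less in the wild type. The counting interval included 2-fold for 3 of them: GRMZM2G155555 (-4.64 to -0.23, on 3 and 11 reads or more), GRMZM2G439268 (-4.47 to -0.85, on 4 and 18 reads or more) and GRMZM2G071575 (-1.84 to -0.74).

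**Figure D4:**
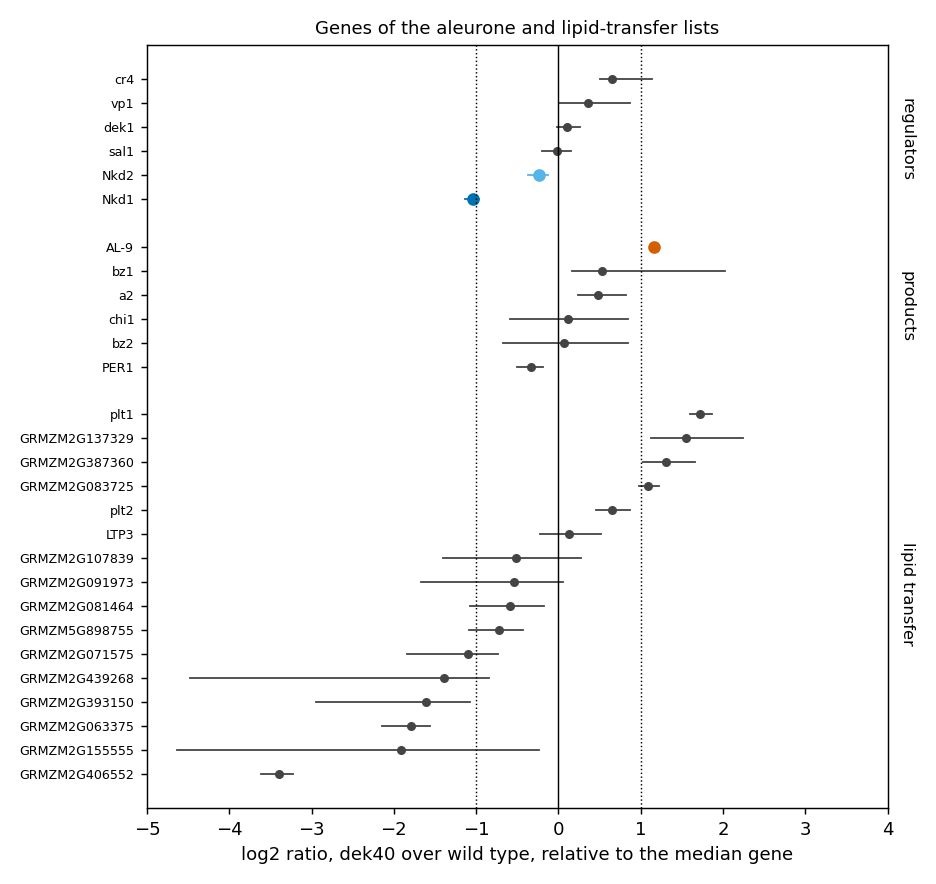
Log2 ratio of dek40 over wild type, relative to the median gene (horizontal), for each gene that reached the minimum level in the lists of aleurone regulators, aleurone products and pigment genes, and lipid-transfer proteins (vertical, AL-9 drawn once). Points are ratios with a pseudocount of 1, lines are 95% counting intervals without it, and dotted lines mark 2-fold. Nkd1 at -1.04 is the 1 regulator and AL-9 at 1.16 the 1 product past 2-fold, while the lipid-transfer genes run from -3.39 to 1.73.

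Markers of other kernel tissues also differed between the libraries, and their part in the values of the 3 genes was not tested. All 6 matched basal transfer layer markers (betl1, betl2, betl3, betl4, betl10 and mn1) and both matched markers of the embryo-surrounding region were lower, with medians of -3.06 and -2.03. Over all genes reaching the minimum level, 4.99% were lower and 6.33% were higher. Of 28 starchy endosperm markers, 27 were lower. The 1 other was a second identifier with the pbf1 symbol (GRMZM2G146267), without a description, at a log2 ratio of -0.16. The 28 made up 2.71% of the summed RPKM in the dek40 library and 16.6% of the summed FPKM in the wild type. Of 4 embryo markers 2 were lower and 0 were higher, with sums of 485 RPKM in dek40 and 676 FPKM in the wild type, most of it the oleosin gene ole16 (GRMZM2G337229) at 395 RPKM in dek40 and 566 FPKM in the wild type. Of 18 markers of green maternal tissue, 8 reached the minimum level, 1 was higher and 2 were lower, with sums of 22.3 RPKM in dek40 and 31.8 FPKM in the wild type. Markers of the labelled tissue were thus present in both libraries. The 4 embryo markers are globulin and oleosin genes, and the symbols lec1, wox2 and ole18 matched no gene. The aleurone also stores oil and protein, so whether these transcripts came from the embryo was not tested. The gene with the symbol Dek40 (GRMZM2G019538) was at 32.0 RPKM in dek40 and 19.6 FPKM in wild-type endosperm. Its log2 ratio was 0.28 after scaling, and the counting interval of -0.02 to 0.60 included no difference. This does not check the label because the allele is not known.

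Genes with a pair of levels most like that of each member were named by their distance on the log2(value + 1) scale over the 2 libraries. For Nkd1 they were the aquaporin genes SIP1-1 (GRMZM2G113470) and PIP2-2 (GRMZM2G092125) and a gene described as a putative apyrase (GRMZM2G085711), at distances of 0.07 to 0.16. Within a distance of 0.2 there were 14 genes around Nkd1 and 242 around Nkd2. For Nkd2 the nearest with a symbol or a description were GRMZM2G035985, GRMZM2G063369 and GRMZM2G177400. AL-9 had 0 genes within that distance. Its nearest were a peptidyl-prolyl isomerase gene (GRMZM2G326111) at 0.69, the enolase gene eno1 (GRMZM2G064302) at 0.79 and the cytosolic glyceraldehyde-3-phosphate dehydrogenase gene gpc3 (GRMZM2G071630) at 0.93. The log2 ratios of these 3 were 0.19, 0.04 and -0.14, against 1.16 for AL-9, so they were near in level but not in ratio. With a pair of values per gene, likeness for Nkd1 and Nkd2 means only a similar level and a similar ratio.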

How the data were processed

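Per the submitters' processing notes, Bowtie2 2.1.0 and the build B73 RefGen v3 were used. The sources used here do not state the counting, annotation or filters. Per the file headers, the authors deposited 1 RPKM value per gene for dek40 and 1 FPKM value for the wild type. Whole reads behind the values were worked out from their ratios, which were fractions of whole numbers times a constant of 1.102 for all 41406 genes (relative tolerance 1e-12). The implied totals were 14218436 for dek40 and 15669149 for the wild type, up to a common factor, and whether these are reads or read pairs is not known. No gene was listed at 0 in either library (0 of 41406), so genes seen in only 1 of the libraries are not among those compared. The shares over all genes leave them out, and a symbol without a match may belong to such a gene. The smallest reads that also give a whole gene length are lower bounds, and they served for Clopper-Pearson 95% intervals of each ratio and exact conditional intervals of ratios between genes. No count test was run.

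The members and lists were chosen with earlier results of these data known. Lists were matched by RefSeq symbols (Zm-B73-REFERENCE-NAM-5.0, 16689 identifiers matched) or words in the deposited descriptions, and 4 genes whose description or main symbol named another gene were left out. The symbols thk1, xcl1, al9, b1, pl1, a1, pr1, whp1, ltp2 and id1 matched no gene. Neither did ole18, lec1, wox2, betl9, tcrr1, esr3, rbcs and dek41, sought as markers of other tissues or as a mutant name. The match to mrp1 was among the 4 left out. The AL-9 name comes from the deposited description. Because the builds differ, no coordinates are given. Named genes are the members, all genes of the regulator and product lists, those past 2-fold or most abundant in the family lists, genes carrying either mutant name as a symbol, and the 3 nearest by level. The marker lists of other tissues are given as counts and sums. Alternatives were the values as deposited, other scalings, pseudocounts of 0.1 and 5, and minimum levels of 0 and 5. Scripts used Python 3.11.15, numpy 2.4.6, pandas 2.3.3 and scipy 1.17.1 and were tested on simulated data.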

Additional observations from a re-analysis of the deposited data

How the results depend on the processing

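No paired analysis was possible because there is 1 library per genotype. With the values as deposited, the log2 ratio was -0.62 for Nkd1 (no longer past 2-fold), 0.17 for Nkd2 and 1.58 for AL-9, the INDETERMINATE domain list had 0 genes past 2-fold, and the count over all genes was 5053 in place of 3190, with 84.7% of them higher in place of 55.9%. The aleurone regulator list kept a count of 1, but it was cr4, higher, in place of Nkd1, lower. With a pseudocount of 5, Nkd1 was at -0.99, so the aleurone regulator and INDETERMINATE domain lists had 0 genes past 2-fold, and the count over all genes was 1072, of which 514 were higher and 558 lower (47.9% higher). With a pseudocount of 0.1 it was 5509, 57.0% of them higher. The lipid-transfer list had 5 higher and 3 lower genes with a pseudocount of 5, in place of 5 and 6. Upper-quartile scaling gave -1.05 for Nkd1, -0.26 for Nkd2 and 1.14 for AL-9. Of 58 comparisons with an alternative, 48 stayed within the counting interval or within 1.5 times the count and 10 moved, the last of these being the count of 7 higher genes among the 100 most abundant by dek40 level, in place of 1 by the mean, an order added after seeing the data. Some of the 48 could not have moved. Median scaling without the zeins gave the same factor, 0.747. With a pseudocount of 1, no gene below a level of 1 in both libraries can reach 2-fold, so dropping the minimum level adds no calls. The call for AL-9 held under every alternative run.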
